A study of Mus musculus with 6 samples.

Results

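Nuclear-encoded oxidative phosphorylation (OXPHOS) genes were examined cell type by cell type in retinas of mice with oxygen-induced retinopathy (OIR). The genes were chosen by symbol, from Nduf, Uqcr, Sdh and Atp5 and from Cox followed by 4 to 8, without Ndufa4l2, Cox4i2, the Ndufaf genes and pseudogenes. The rule itself used no measured value, but it was set with earlier results of these data known. They made up 87 of the 31053 genes in the files: 36 of complex I, 4 of complex II, 8 of complex III, 18 of complex IV with Ndufa4 counted there, 16 of complex V, 4 complex II assembly factors (Sdhaf1 to Sdhaf4) and Atp5s. OIR pups breathed 75% oxygen from postnatal day (P) 7 to P12 and then room air for 5 days. Control (Ctrl) pups of the same age stayed in room air, and both groups were sampled at P17. Each group had 3 samples, each pooling the retinas of 2 mice, and the labels give no genotype, strain or sex. The labels name the material retinal endothelial cells, but only 197 of the 38569 cells kept (0.511%) were vascular endothelial-like, and the data are described here as whole retina.

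OXPHOS is carried out by multi-subunit complexes of the inner mitochondrial membrane. Complex I takes electrons from NADH and complex II from succinate, complex III passes them to cytochrome c, complex IV passes them to oxygen, and complex V uses the resulting proton gradient to make ATP. A few subunits are encoded by mitochondrial DNA, while the rest come from the nuclear genes described here, several of complex IV in tissue-specific isoforms. Photoreceptors are known for a high demand for ATP, which keeps up their dark current and phototransduction.

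The files held unique molecular identifiers (UMIs) per gene and cell, for 6459 to 9734 cell barcodes per sample. After filtering on detected genes and mitochondrial UMIs, 5371 to 7470 cells per sample remained, with 14654629 to 36042967 UMIs per sample and a median of 1449.5 to 4850 UMIs per cell. Between 46 and 66 kept barcodes of each sample also occurred in another sample. The replicate 1 samples of both groups were deeper and had a median mitochondrial share of 5.86% and 8.08%, against 2.24% to 3.31% in the other 4 samples. By Xist and 4 Y-linked genes, Ctrl replicates 2 and 3 were female by expression and the other 4 samples were not. Group and sex are therefore partly tied. A fit with a term for sex sets the OIR samples against Ctrl replicate 1 alone, and its values are given beside the results they moved most. Without Ctrl replicate 1, and in replicates 2 and 3 alone, every Ctrl sample was female and no OIR sample was. Group and sex cannot be told apart in those runs. Clusters were named from markers, as rod-like (25404 cells, 65.9%), Mueller-like (3894), cone bipolar-like (3433), rod bipolar-like (2055), cone-like (1877), amacrine-like (341), retinal pigment epithelium (RPE)-like (249) and microglia-like cells (244). These 8 types had at least 10 cells in every sample and were tested. The defining markers were present in each, for example all 9 RPE markers in the RPE-like sums. Naming was less clear in cone bipolar-like clusters 8 (723 cells) and 18 (229 cells), where 5 and 4 of 12 markers were above their mean share. The cone marker score was higher there than the cone bipolar one (0.394 against 0.366, and 0.298 against 0.213). Smaller cells of a type cannot be told apart from less RNA per cell in any of these sums.

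Of the 87 members, 71 had a RefSeq promoter (build GRCm38.p6, 250 bases before to 50 bases after the gene start). Of these members, 8 (11.3%) held in a promoter the letters GCGCATGCG from the motif of NRF1, a regulator of mitochondrial genes. Of all 19407 genes with a promoter, 2.42% did. Likewise 19 (26.8%) held CCGGAAG of the ETS family, against 12.1%, and 7 (9.86%) held AAGATGGCG of YY1, against 2.05%. The letters TCAAGGTCA, read by estrogen-related receptors, were found in 2 (2.82%, Atp5g3 and Sdhd) against 0.433%, and ACGTG, the core read by hypoxia-inducible factors, in 17 (23.9%) against 23.0%. Both strands were searched, and a match is a description of letters only. The 250 bases upstream of 4 members whose values the results turn on are printed 5' to 3', all from minus-strand genes: Cox8b (chr7:140900447-140900696), Cox6b2 (chr7:4753095-4753344), Ndufa4 (chr6:11907451-11907700) and Cox6a1 (chr5:115348959-115349208). Capitals mark any of the letters searched, which were the ACGTG core in Cox8b and the overlapping NRF1 letters and the ETS letters in Cox6a1. Cox6b2 and Ndufa4 held none. In the files these carry the Ensembl identifiers ENSMUSG00000025488 (Cox8b), ENSMUSG00000051811 (Cox6b2), ENSMUSG00000029632 (Ndufa4) and ENSMUSG00000041697 (Cox6a1).
Cox8b: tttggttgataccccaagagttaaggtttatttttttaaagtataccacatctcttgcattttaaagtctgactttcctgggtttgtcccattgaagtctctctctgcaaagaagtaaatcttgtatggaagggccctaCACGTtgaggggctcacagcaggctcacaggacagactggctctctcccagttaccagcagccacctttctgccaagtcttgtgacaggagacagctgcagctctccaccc
Cox6b2: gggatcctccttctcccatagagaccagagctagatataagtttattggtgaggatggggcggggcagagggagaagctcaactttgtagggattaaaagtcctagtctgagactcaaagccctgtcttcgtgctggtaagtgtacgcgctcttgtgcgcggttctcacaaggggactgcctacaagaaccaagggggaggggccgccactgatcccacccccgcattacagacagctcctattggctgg
Ndufa4: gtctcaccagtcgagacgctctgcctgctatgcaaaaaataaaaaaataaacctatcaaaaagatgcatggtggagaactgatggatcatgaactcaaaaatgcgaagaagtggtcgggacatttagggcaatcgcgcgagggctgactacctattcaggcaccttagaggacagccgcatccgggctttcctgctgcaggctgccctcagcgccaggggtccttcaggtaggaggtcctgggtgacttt
Cox6a1: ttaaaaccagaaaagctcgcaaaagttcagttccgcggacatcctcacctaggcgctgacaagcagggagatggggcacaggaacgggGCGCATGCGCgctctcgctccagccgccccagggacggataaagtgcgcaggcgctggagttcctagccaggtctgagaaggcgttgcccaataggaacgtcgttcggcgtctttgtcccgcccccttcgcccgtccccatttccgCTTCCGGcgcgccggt
The GC content of these stretches was 47.2% in Cox8b, 54.8% in Cox6b2, 51.6% in Ndufa4 and 62.8% in Cox6a1.

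The members together took 1.6% to 4.4% of the UMIs of a cell type, most in cones and least in microglia. Over the 6 samples their share was 4.44% ± 0.354 (SD) in cone-like cells, 4.12% ± 0.450 in rod bipolar-like cells and 4.07% ± 0.496 in RPE-like cells. It was 3.68% ± 0.383 in cone bipolar-like, 3.27% ± 0.299 in rod-like and 3.24% ± 0.378 in amacrine-like cells. Mueller-like cells had 2.49% ± 0.185 and microglia-like cells 1.62% ± 0.109. Neighbours in this order from cone-like to amacrine-like cells overlapped in their samples, whereas the highest Mueller-like sample (2.69%) lay below the lowest amacrine-like sample (2.72%), and the microglia-like samples (1.49% to 1.77%) lay below all Mueller-like samples. Mueller-like cells were not uniform, however: in their cluster 3 the share was 1.93% to 2.37% per sample and in their cluster 6 it was 3.45% to 4.05%. In 197 vascular endothelial-like cells, which were too few to test, the share was 2.17% ± 0.360.

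**Figure D1:**
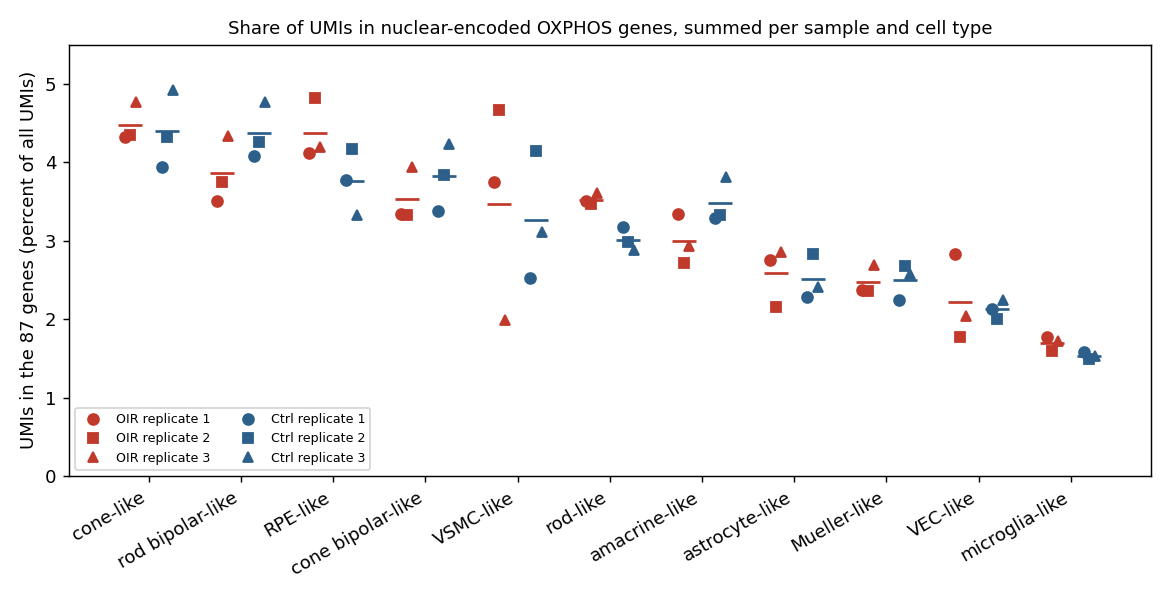
Share of UMIs in the 87 members (percent, vertical axis) per sample and cell type, with red for OIR, blue for Ctrl, the marker shape for the replicate number and a bar at each group mean. Cone-like cells are highest and microglia-like cells lowest, and the OIR and Ctrl samples separate in rod-like and microglia-like cells.

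Member by member, cone-like cells had the highest mean level of 31 of the 85 members with any UMI, rod bipolar-like cells of 20 and RPE-like cells of 19, while microglia-like cells had the lowest of 74. Atp5g1, which encodes the ring subunit c of complex V, averaged 1305 ± 109 CPM (UMIs scaled to the same library total in every sample) in cone-like cells, against 779 in RPE-like, 750 in rod bipolar-like, 277 in Mueller-like and 232 in microglia-like cells. Cox8a, the common isoform of a small complex IV subunit, averaged 2704 CPM ± 432 in cone-like and 618 in microglia-like cells. Ndufa4 ranged from 367 CPM in microglia-like to 2307 CPM in cone-like cells, close to its 2097 in rod bipolar-like and 2016 in rod-like cells. Cox4i1, an early-assembling complex IV subunit, varied least of these, from 829 CPM in microglia-like to 1548 CPM in rod bipolar-like cells.

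A pair of catalytic subunits had their highest means in rod bipolar-like and cone-like cells. Sdha, the flavoprotein of complex II, averaged 251 CPM in rod bipolar-like, 212 in cone-like and 204 in rod-like cells, and Atp5b, the catalytic beta subunit of complex V, 1465 CPM in cone-like, 1028 in rod-like and 1023 in rod bipolar-like cells.

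A pair of complex IV isoforms stood apart from the common pattern. Cox8b, known from muscle and brown fat, averaged 618.5 CPM in RPE-like cells, with 99.7 to 1952 over the samples, and 3.31 CPM in cone bipolar-like and 0.217 CPM in rod-like cells. It was seen in 105 of 249 RPE-like cells (42.2%, median 1914 UMIs per cell) and in 10 of 25404 rod-like cells (0.0394%, median 1841 UMIs per cell). In cone bipolar-like cells, with a median of 6390 UMIs per cell, it was seen in 56 of 3433 cells (1.63%). Cone-like, Mueller-like, amacrine-like and microglia-like cells had 0 Cox8b UMIs. Whether the low shares are background was not tested. Cox6b2, the isoform known from testis, averaged 65.4 CPM in RPE-like, 42.1 in Mueller-like and 25.4 in cone-like cells, and 4.69 in rod-like and 2.04 in microglia-like cells. The muscle isoforms Cox6a2 (at most 2.1 CPM) and Cox7a1 (0.4 to 12.2 CPM) were near 0, and Cox8c and the longer of 2 rows named Atp5o had no UMI. The row kept as Atp5o.1, on chromosome 16, overlaps that longer row, so its counts are uncertain.

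**Figure D2:**
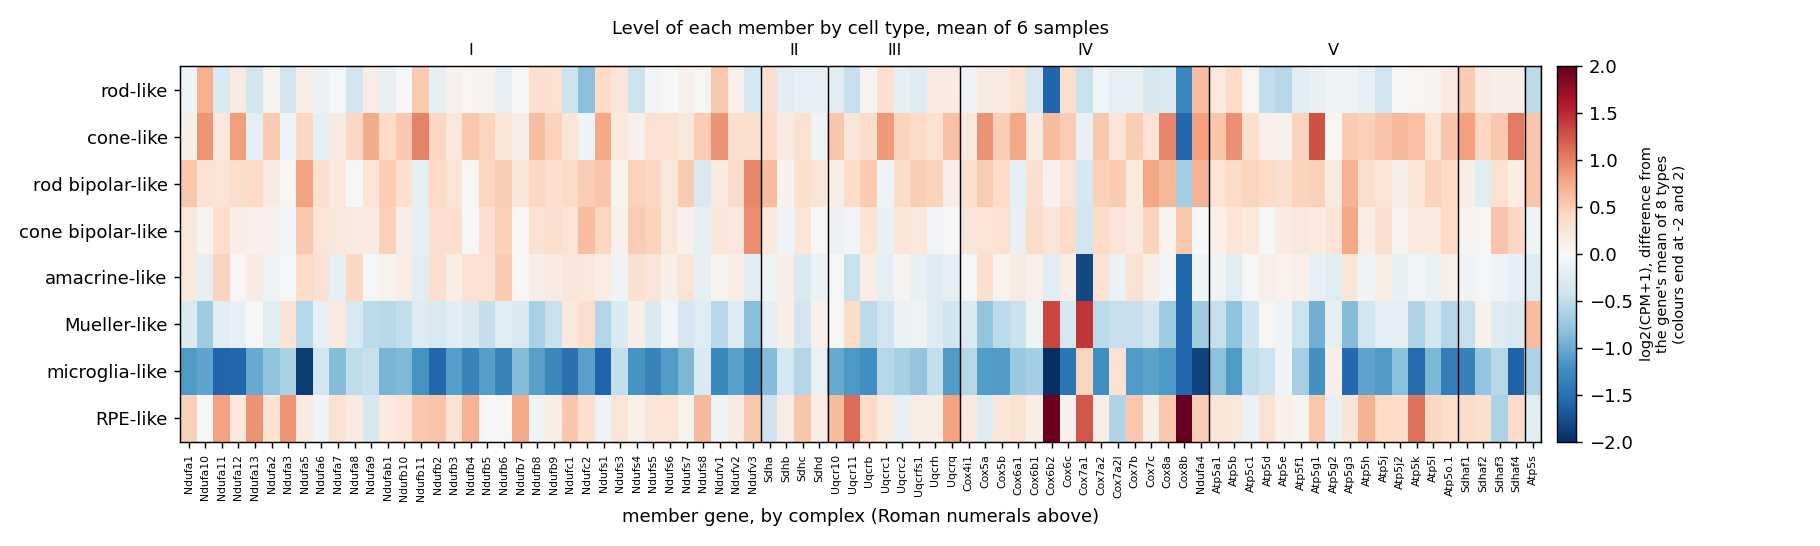
Heat map of the members (columns, by complex) across the 8 cell types (rows), as log2(CPM + 1) minus the mean of that member over the types, for the members shown, which had a mean of at least 10 CPM in some type. The cone-like and rod bipolar-like rows are mostly above and the microglia-like row mostly below the mean, and Cox8b is highest in the RPE-like row.

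Among the genes outside the list, Chchd10 (Pearson r = 0.927), Suclg1 (0.923), Mdh1 (0.904) and Apoo (0.901) had patterns most like that of the summed members. These correlations run over 48 sample by cell type sums and 9711 genes, and the points share samples and depth.

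For OIR against Ctrl, the summed UMIs of each cell type were fitted with edgeR's quasi-likelihood test, with the trimmed mean of M values (TMM) as scaling, and calls needed an adjusted p below 0.05 (Benjamini-Hochberg, over all genes tested) with 0.25 or more of change on the log2 scale. Of the members, 75 to 82 passed the filter on low counts in a type. One was called in any type, Cox8b, which fell in RPE-like cells. No member was called in rod-like cells, where 1.59% of 11562 genes were called higher and 1.03% lower, or in Mueller-like cells, with 1.64% of 11623 genes higher and 1.12% lower. None was called in rod bipolar-like (1.26% and 1.16% of 9332 genes), cone-like (0.755% and 0.447% of 9398) or cone bipolar-like cells (0.517% and 0.351% of 10259). None was called in amacrine-like cells, where 0.0531% of 3768 genes were called higher and 0% lower, or in microglia-like cells, where 0.295% of 3393 were higher and 0.0295% lower. By DESeq2, 2 of 82 members were called in rod-like cells (Cox5b and Cox6a1, higher), where it called 5.87% of all genes, 2 of 81 in rod bipolar-like cells (Ndufa4 and Ndufa13, lower), where it called 2.71%, Cox8b in RPE-like cells and 0 members in the other 5 types.

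At an unadjusted p under 0.05, members passed more often than all genes in rod bipolar-like and RPE-like cells and less often in the other 6 types, as a description without a test. In rod bipolar-like cells 20 of 81 members (24.7%) passed against 14.4% of all genes, 18 of them lower in OIR. In rod-like cells 10 of 82 passed (12.2%), 9 of them higher, against 18.6% of all genes. In RPE-like cells 8 of 75 passed (10.7%) against 4.92%. In amacrine-like cells 1 member passed (1.3%, against 6.95% of all genes), in cone-like 2 (2.47%, against 11.4%), in cone bipolar-like 3 (3.7%, against 11.9%), in microglia-like 3 (4%, against 9.43%) and in Mueller-like cells 3 (3.66%, against 15.7%).

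The sign of the median over the members was not the same in every type. The median log2 fold change was -0.18 in rod bipolar-like cells (14 members positive, 67 negative), -0.15 in cone bipolar-like cells (15 and 66) and -0.14 in amacrine-like cells (20 and 57), with medians of all genes tested between -0.01 and 0.02. It was 0.18 in microglia-like cells (58 and 17), 0.17 in RPE-like cells (62 and 13) and 0.05 in rod-like cells (53 and 29), with all-gene medians of -0.01, -0.02 and 0.00. In cone-like cells it was -0.03 (32 and 49) and in Mueller-like cells -0.07 (25 and 57). The amacrine-like sums also differed in their markers. Amacrine markers took 0.212% to 0.368% of their UMIs in OIR and 0.426% to 0.442% in Ctrl, without overlap. Rod markers took 0.297% to 0.880% of them in OIR and 0.253% to 0.374% in Ctrl. The part of these shifts in the amacrine-like values here and below was not tested. Scaling by library size alone shifted the median of all genes in rod-like cells to 0.16 and that of the members to 0.21 (77 positive, 5 negative), and turned the cone-like median to 0.02 (51 and 30) beside an all-gene median of 0.06. The Mueller-like median then was -0.01. With a term for sex, which leaves Ctrl replicate 1 alone against OIR, the medians of cone-like and Mueller-like cells turned to 0.09 and 0.05. That of cone bipolar-like cells then shrank to -0.03 (36 and 45), of microglia-like cells to 0.06 (40 and 35) and of rod-like cells to 0.01 (42 and 40). In the same fit the amacrine-like median was -0.09 and the rod bipolar-like one -0.12. Single samples also moved these medians. The microglia-like median was 0.09 without OIR replicate 1, 0.12 without Ctrl replicate 2 and 0.29 without Ctrl replicate 1, and the rod-like median ranged from 0.02 without OIR replicate 1 to 0.12 without Ctrl replicate 1. The cone bipolar-like median was -0.07 without OIR replicate 2 or Ctrl replicate 3, and the amacrine-like one ran from -0.28 without OIR replicate 1 to -0.09 without OIR replicate 3. The rod bipolar-like median was -0.12 without OIR replicate 2, the RPE-like one 0.28 without Ctrl replicate 2, and the Mueller-like one ran from -0.14 without Ctrl replicate 1 to -0.02 without OIR replicate 2. The cone-like median turned to 0.02 without OIR replicate 2 and 0.05 without Ctrl replicate 3.

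**Figure D3:**
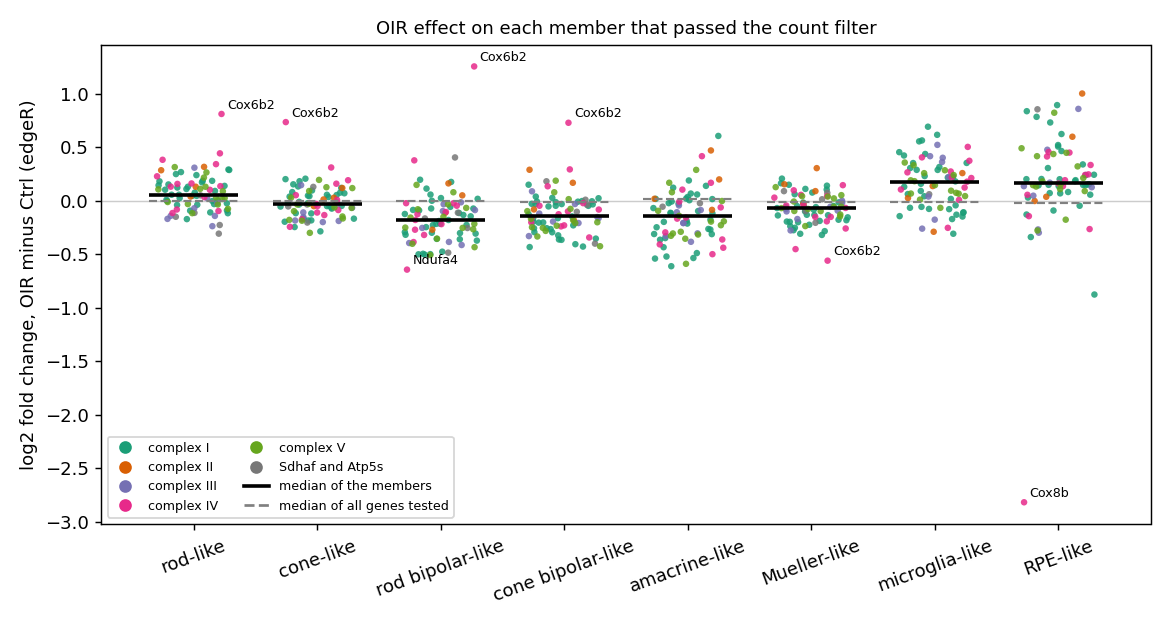
Log2 fold change of each tested member, OIR minus Ctrl (vertical axis, TMM scaling), per cell type and coloured by complex, with the member median as a black bar and the median of all genes tested as a dashed line. Points lie mostly below 0 in rod bipolar-like and cone bipolar-like cells and mostly above 0 in microglia-like and RPE-like cells.

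Cox8b was the gene with the clearest difference. In RPE-like cells its level was 108, 191 and 160 TMM-scaled CPM in OIR replicates 1 to 3 and 512, 1940 and 787 in Ctrl. Every OIR sample lay below every Ctrl sample, and Ctrl replicate 2 was far above the other 2. The log2 fold change was -2.82 (SE 0.44, adjusted p = 0.00215), and Cox8b was the only one of 1770 genes called in this cell type (0% higher, 0.0565% lower). The counts behind it were small, 5, 24 and 24 UMIs in OIR against 43, 464 and 24 in Ctrl. The share of RPE-like cells with a Cox8b UMI was 15.8%, 26.2% and 28.1% in OIR, against 35.1%, 73.7% and 33.3% in Ctrl. Without Ctrl replicate 2 the log2 fold change was -1.92 (adjusted p = 0.000585), and without OIR replicate 1 it was -2.66 and no longer passed (adjusted p = 0.0884). With a term for sex, which leaves Ctrl replicate 1 alone against OIR, it was -1.62 and did not pass. RPE-like cells also differed in other ways between the groups: the summed share of the 9 RPE markers was 6.77% to 9.53% in OIR and 4.44% to 6.87% in Ctrl, and Ttr, the most abundant of them, was 51227 to 77192 CPM against 26974 to 42505 CPM. Of these markers only Ttr had all OIR samples above all Ctrl samples, and the groups overlapped in each of the others. Dct, Tyrp1 and Pmel, the melanosome genes of the list, were like Cox8b high in Ctrl replicate 2 or in Ctrl as a whole, Pmel at 1164 to 1814 CPM in OIR and 1809 to 4237 CPM in Ctrl. This was not particular to melanosome genes. Rdh10 was highest in Ctrl replicate 2 (1960 CPM), and Lrat was at 757 to 969 CPM in OIR and 780 to 1541 CPM in Ctrl. Rpe65, Rdh5 and Rgr did not share it and were highest in an OIR sample, at 2809, 3102 and 4883 CPM. Their highest Ctrl samples were at 2288, 2629 and 3895 CPM. The part of these differences in the Cox8b result was not tested, and each sample held only 18 to 76 RPE-like cells.

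The other members of RPE-like cells were mostly above 0 without passing. Sdhb, the iron-sulfur subunit of complex II, was at 217, 215 and 194 CPM in OIR and 107, 109 and 65.6 CPM in Ctrl. All OIR samples were above all Ctrl samples, with a log2 fold change of 1.00 (SE 0.38, adjusted p = 0.938). By complex, 29 of 34 complex I members, 3 of 4 in complex II, 6 of 8 in complex III, 10 of 13 in complex IV and 13 of 15 in complex V were positive, with medians of 0.13 to 0.32.

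**Figure D4:**
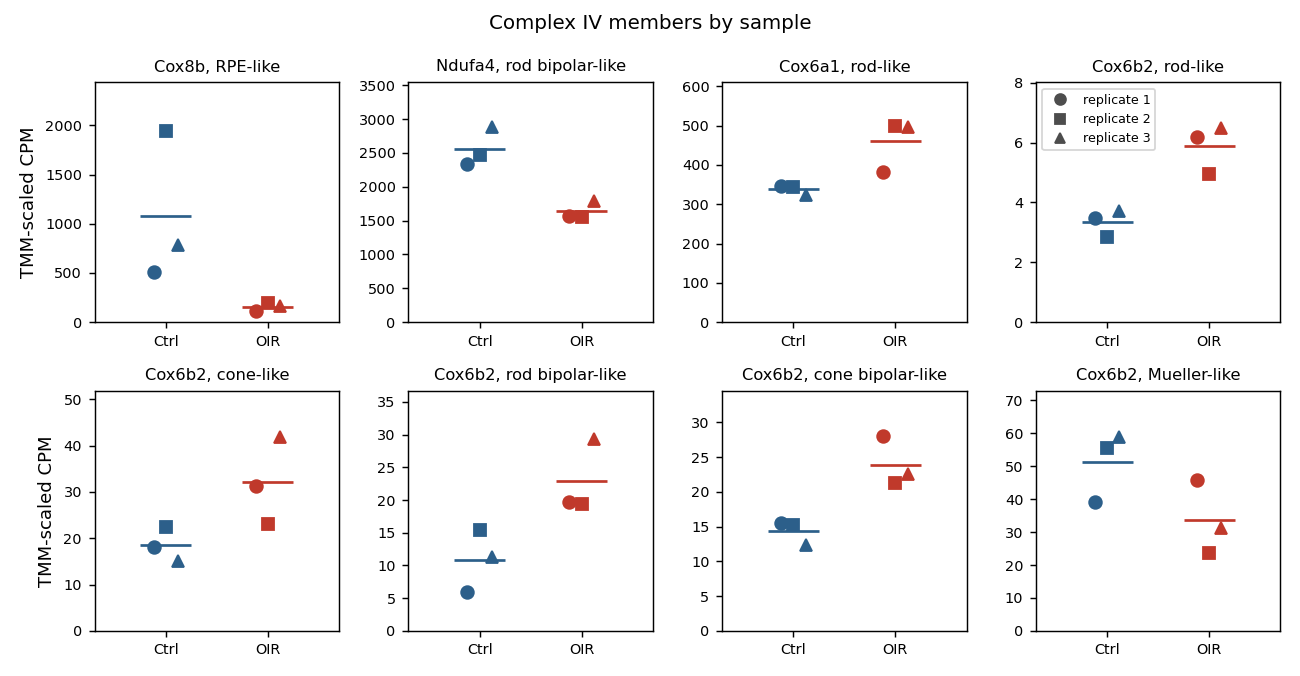
TMM-scaled CPM (vertical axes, from 0) of the members and cell types named in the panel titles, one point per sample, red for OIR and blue for Ctrl, with the marker shape for the replicate number and a bar at the group mean. Cox8b in RPE-like cells and Ndufa4 in rod bipolar-like cells are lower in every OIR sample.

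Cox6b2 had higher values in OIR in several neuron types and lower ones in Mueller-like cells, none past the threshold. In rod bipolar-like cells it was at 19.7, 19.4 and 29.4 CPM in OIR and 5.94, 15.4 and 11.2 in Ctrl, without overlap (log2 fold change 1.26, SE 0.34, adjusted p = 0.0693). In cone bipolar-like cells it was at 28.0, 21.3 and 22.6 against 15.5, 15.3 and 12.3 CPM (0.73, SE 0.22, adjusted p = 0.165). In rod-like cells the values were far lower, 6.19, 4.94 and 6.50 against 3.49, 2.84 and 3.73 CPM (0.81, SE 0.25, adjusted p = 0.121). The groups did not overlap in any of these 3 types. In cone-like cells Cox6b2 was at 31.3, 23.1 and 41.8 CPM against 18.1, 22.4 and 15.1 (adjusted p = 0.163). With the replicate number as a block, Cox6b2 was called higher in rod bipolar-like cells (log2 fold change 1.23, adjusted p = 0.00965) and cone bipolar-like cells (0.77, adjusted p = 0.0371).

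In Mueller-like cells Cox6b2 was at 45.9, 23.7 and 31.2 CPM in OIR and 39.1, 55.5 and 58.9 in Ctrl (log2 fold change -0.56, SE 0.25, adjusted p = 0.303). OIR replicate 1 lay inside the Ctrl range and the other 2 below it. In replicates 2 and 3 alone, where every Ctrl sample was female by expression and no OIR sample was, the log2 fold change was -1.06 (adjusted p = 0.0175). These 2 OIR samples also had the shallowest Mueller-like cells, with a median of 2751 and 2242.5 UMIs per cell against 5963 to 8025 in the other 4 samples, and more of them in cluster 6 (60.1% and 60.7% of Mueller-like cells, against 32.7% to 44.2%). Cox6b2 was seen in 19.9% of Mueller-like, 14.8% of cone-like, 10.4% of cone bipolar-like, 9.15% of rod bipolar-like and 1.03% of rod-like cells, and in 1.23% of microglia-like cells.

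Whether the OIR effect differed between cell types was tested as an interaction against rod-like cells. Cox6b2 was the only member called, with an effect lower by 1.51 on the log2 scale in Mueller-like than in rod-like cells (SE 0.27, adjusted p = 0.0132), where 0.53% of all genes had a higher and 1.37% a lower effect. This call was lost when OIR replicate 2 (adjusted p = 0.0548), OIR replicate 3 (0.082), Ctrl replicate 2 (0.0717) or Ctrl replicate 3 (0.0656) was left out, while the difference stayed between -1.74 and -1.32. No member was called against rod-like cells in the other types, where the shares of all genes with a higher and a lower effect were 0.761% and 0.526% in amacrine-like, 0.495% and 0.726% in cone-like, 0.338% and 0.781% in cone bipolar-like, 0.323% and 0.297% in microglia-like, 0.509% and 0.878% in rod bipolar-like and 0.00903% and 0.0722% in RPE-like cells. At an unadjusted p under 0.05, 28 members differed between rod bipolar-like and rod-like cells, 10 in cone bipolar-like, 8 in Mueller-like, 6 in amacrine-like, 3 in cone-like, 2 in microglia-like and 1 in RPE-like cells. The share of all genes under this limit was not counted for the interaction, so these counts have no background to be read against. The median difference of the members from rod-like cells was -0.27 in rod bipolar-like, -0.25 in amacrine-like, -0.18 in cone bipolar-like and Mueller-like, -0.09 in cone-like, 0.12 in microglia-like and 0.14 in RPE-like cells, against all-gene medians of -0.07 to 0.01.

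In rod-like cells the members took a larger share of the UMIs in OIR. The share was 3.50%, 3.47% and 3.61% in OIR and 3.18%, 2.98% and 2.88% in Ctrl, so the groups did not overlap. Complex IV was at 1.01%, 1.05% and 1.11% against 0.897%, 0.877% and 0.829%, complex I at 1.24%, 1.21% and 1.24% against 1.10%, 1.04% and 1.03%, and complex V at 0.851%, 0.821% and 0.846% against 0.795%, 0.692% and 0.655%. Other transcripts moved at the same time: the summed share of 8 rod markers was 2.73% to 3.07% in OIR and 3.13% to 3.69% in Ctrl. Markers of Mueller cells in the rod-like sums were at 0.0532% to 0.0612% in OIR and 0.0307% to 0.0430% in Ctrl, and a list of 8 leukocyte and red cell genes, hemoglobins among them, at 0.000748% to 0.00334% against 0.115% to 0.20%. Cytosolic ribosomal protein genes took 6.65% to 6.74% of rod-like UMIs in OIR and 4.92% to 6.44% in Ctrl. None of these ranges overlapped, and their part in the member share was not tested. Divided by the TMM factor, the share was 3.34% ± 0.13 against 3.19% ± 0.15 and the groups overlapped, and as a mean over cells it was 3.14% against 2.79%, also with overlap.

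The rod-like cells of the samples came from different clusters, mostly cluster 1 in replicate 1 (71.5% in OIR and 80.1% in Ctrl). Cluster 0 was the largest in replicates 2 and 3, with 43.5% and 44.1% in OIR and 49.9% and 59.0% in Ctrl. In these replicates cluster 1 held 32.3% and 24.4% in OIR against 15.6% and 11.4% in Ctrl. The part of this in the member share was not tested. Within cluster 1 the share was 3.45%, 3.53% and 3.69% in OIR and 3.13%, 3.00% and 3.14% in Ctrl, again without overlap. In cluster 0 it was 2.39%, 2.19% and 2.25% against 2.26%, 1.77% and 1.99%. In cluster 2 it was 3.84%, 4.56% and 4.74% against 3.34%, 4.10% and 4.13%. The groups overlapped in clusters 0, 2 and 11, although each OIR sample of clusters 0 and 2 was above the Ctrl sample of the same number.

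**Figure D5:**
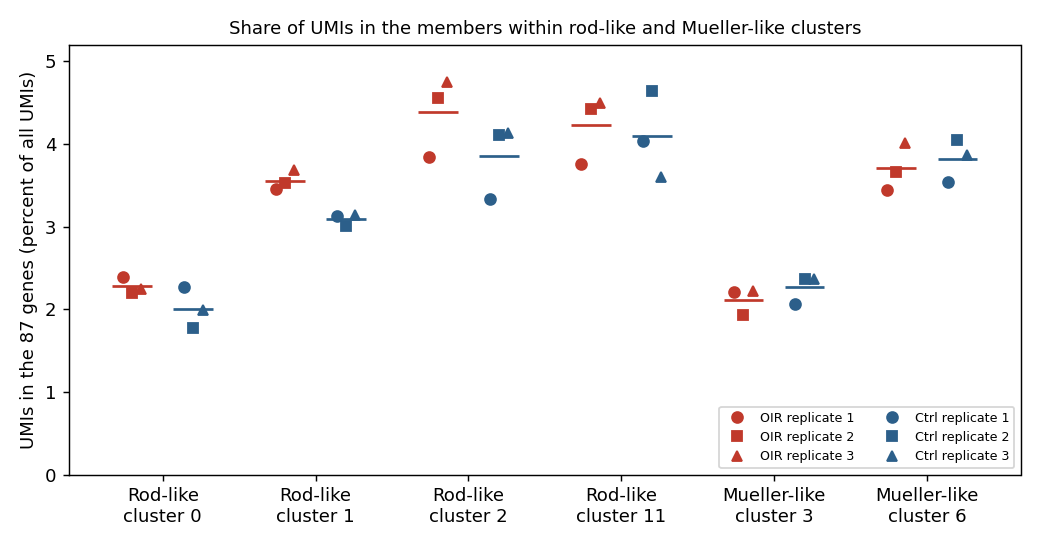
Share of UMIs in the members (percent, vertical axis) within single Mueller-like and rod-like clusters, one point per sample, with red for OIR, blue for Ctrl, the marker shape for the replicate number and a bar at each group mean. The share differs more between clusters than between OIR and Ctrl within a cluster.

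Complex IV subunits led the members that were higher in rod-like cells of OIR, none of them past the threshold. Cox6a1, the common isoform of a small subunit, was at 382, 500 and 497 CPM in OIR and 346, 344 and 324 in Ctrl (log2 fold change 0.44, SE 0.13, adjusted p = 0.114, and 0.0400 with the replicate block). Cox5b, a zinc-binding subunit, was at 651, 739 and 740 against 584, 525 and 524 CPM (0.38, SE 0.12, adjusted p = 0.121). Both had all OIR samples above all Ctrl samples. Cox4i1 was at 1242, 1308 and 1296 CPM against 1173, 957 and 902 (0.34, adjusted p = 0.223). Over all members, 19 of 82 had OIR above Ctrl without overlap (23.2%, against 12.1% of all genes) and 4 below (4.88%, against 11.5%), and 8 of the 14 complex IV members were among the 19. Complex IV members were positive in 11 of 14 cases with a median of 0.15, against 25 of 36 with a median of 0.07 in complex I and 10 of 15 with a median of 0.03 in complex V.

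In rod-like cells, all 4 complex II members were positive and 6 of 8 complex III members negative with TMM scaling, while with library size alone only 2 of the 8 were negative and the complex III median turned from -0.11 to 0.05. Sdhd, a membrane anchor of succinate dehydrogenase, was at 84.9, 97.6 and 91.8 CPM in OIR and 85.4, 70.4 and 64.9 in Ctrl (log2 fold change 0.32, adjusted p = 0.224), with Ctrl replicate 1 inside the OIR range. The median over complex II was 0.21. Sdhaf4, an assembly factor for the flavoprotein subunit, was at 148, 121 and 141 CPM in OIR against 165, 169 and 172 in Ctrl, without overlap (-0.31, adjusted p = 0.171). Negative members of complex III were, among others, Uqcrb, a ubiquinone-binding subunit, at -0.24 and Uqcrc1, a core subunit, at -0.17. Uqcr11, a small subunit of the same complex, was positive at 0.31, with 323, 323 and 387 CPM in OIR and 256, 308 and 269 in Ctrl. Rod-like signs depended on the scaling, and 24 of the 82 turned with library size alone.

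In rod bipolar-like cells, which relay rod signals, most members of complexes I, III, IV and V had negative log2 fold changes, while complex II was split, with 2 positive and 2 negative members (median -0.03). Their share of UMIs was 3.50%, 3.75% and 4.33% in OIR and 4.08%, 4.26% and 4.77% in Ctrl, lower in each replicate number although the groups overlapped. Ndufa4 was at 1574, 1554 and 1795 CPM in OIR and 2338, 2462 and 2886 in Ctrl. Every OIR sample was below every Ctrl sample (log2 fold change -0.64, SE 0.16, adjusted p = 0.0519), and the adjusted p was 0.000898 with the replicate block. Among the runs that left out 1 sample, Ndufa4 was called only without Ctrl replicate 1. Ndufa13, an accessory subunit of complex I needed for its assembly, was at 484, 431 and 548 CPM against 723, 619 and 725 (-0.50, SE 0.14, adjusted p = 0.0842, and 0.00502 with the block). No run that left out 1 sample called it. Ndufa5, another accessory subunit, was at 435, 379 and 523 CPM against 574, 588 and 729 (-0.50, adjusted p = 0.123). The pairing of replicates 2 and 3 in the replicate block is uncertain. With that block, 17 of 81 members were called, 2 higher and 15 lower, where 6.79% of all genes were called. Those higher were Cox6b2 and Cox7a2l, and those lower were Ndufa1, Ndufa2, Ndufa4, Ndufa5, Ndufa13, Ndufb2 and Ndufc1 of complex I, Uqcrb, Uqcr10 and Uqcrq of complex III, Cox8a of complex IV and Atp5d, Atp5e, Atp5j2 and Atp5k of complex V.

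The lower members of rod bipolar-like cells also came from complexes III, IV and V. Uqcr10, a small complex III subunit, was at 318, 322 and 425 CPM in OIR and 436, 469 and 512 in Ctrl (log2 fold change -0.41, adjusted p = 0.189), and all 8 complex III members were negative with Uqcrb at -0.40. Atp5d, the delta subunit of the complex V stalk, was at 478, 441 and 512 CPM against 622, 573 and 633 (-0.35, adjusted p = 0.212). Cox8a was at 1848, 1753 and 2060 CPM against 2295, 2359 and 2739 (-0.39, adjusted p = 0.276). In each of these 3 the groups did not overlap. Negative signs were found in 29 of 36 members of complex I, 11 of 13 of complex IV and 13 of 15 of complex V, with medians of -0.20, -0.13 and -0.22. Among the catalytic subunits, Atp5b was at -0.08 and Sdha at -0.11. A higher value was seen for Cox7a2l, a factor of respiratory supercomplexes, at 591, 479 and 505 CPM against 476, 367 and 363 (0.38, adjusted p = 0.248). Without overlap, 13 of 81 members were lower (16.0%, against 9.89% of all genes) and 5 higher (6.17%, against 10.4%). Cytosolic ribosomal protein genes took a larger share in OIR, with 1 of 79 called higher and 74 positive (median 0.30), and their summed share was 7.32%, 7.77% and 8.48% against 6.17%, 6.16% and 6.28%. Marker lists separated the groups as well, with rod bipolar markers at 2.40% to 2.63% in OIR and 2.02% to 2.27% in Ctrl, cone bipolar markers at 0.229% to 0.309% against 0.185% to 0.203%, Mueller markers at 0.0274% to 0.0303% against 0.0136% to 0.0250% and astrocyte markers at 0.0213% to 0.0366% against 0.00883% to 0.0109%. The part of these shifts in the member values was not tested.

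Cone bipolar-like cells resembled this in direction. Ndufa13 was at 436, 353 and 433 CPM in OIR and 530, 542 and 547 in Ctrl (log2 fold change -0.41, adjusted p = 0.23), and Ndufs7, a core iron-sulfur subunit of complex I, at 214, 204 and 223 against 293, 251 and 273 CPM (-0.35, adjusted p = 0.27). Neither passed, and the groups did not overlap in either. In complex I 32 of 36 members were negative (median -0.15), in complex III 7 of 8, in complex IV 10 of 13 and in complex V 12 of 15 (median -0.20), while complex II had 2 positive and 2 negative members (median 0.04). With library size alone 22 of the complex I members were negative and the medians stayed below 0. With the replicate block 2 of 81 were called, Cox6b2 higher and Ndufa13 lower, where 4.99% of all genes were called. The comparisons of the 8 types use the same 6 samples and are therefore not independent of each other.

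In Mueller-like cells 28 of 36 complex I members were negative (median -0.12, and -0.06 with library size alone) and 3 of 4 complex II members positive (median 0.12). Sdhd was at 113, 109 and 111 CPM in OIR and 86.2, 92.0 and 91.4 in Ctrl, without overlap (adjusted p = 0.233). Ndufs7 was at 163, 149 and 169 against 183, 209 and 209 CPM (log2 fold change -0.32, adjusted p = 0.247). In microglia-like cells, the resident immune cells, 11 of 12 complex IV and 14 of 15 complex V members were positive (10 and 13 with library size alone). Ndufv3, an accessory subunit of complex I, was at 205, 262 and 206 CPM there against 154, 150 and 102 (0.69, SE 0.25, adjusted p = 0.323). The share of the members in microglia-like cells was 1.77%, 1.60% and 1.72% in OIR and 1.58%, 1.49% and 1.53% in Ctrl, without overlap. The microglia markers took 3.94% to 4.44% in OIR and 4.46% to 5.10% in Ctrl, and their part in the member share was not tested.

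Across the types, the membrane anchors of complex II were positive throughout, Sdhc between 0.04 and 0.47 and Sdhd between 0.03 and 0.60 on the log2 scale, and both kept that sign in all 8 types with library size alone. Atp5a1, the alpha subunit of complex V, was also positive in all 8, between 0.04 and 0.29. Ndufb9, an accessory subunit of complex I, was positive in all 8 with both scalings (0.02 to 0.62), and Uqcrh, the hinge protein of complex III, was negative in all 8 with TMM (-0.27 to -0.03) and in 5 with library size alone. Uqcrb was negative in 7 of 8 types, between -0.40 and -0.15, and at 0.36 in microglia-like cells. None of these passed in any type. The other core subunits varied around 0: Ndufs1 was between -0.61 in amacrine-like and 0.05 in rod-like cells, Ndufv1 between -0.88 in RPE-like and 0.17 in rod-like cells, Uqcrfs1, the Rieske iron-sulfur protein, between -0.33 and 0.22, and Atp5c1, the gamma subunit, between -0.18 and 0.44.

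The X-linked members were set beside the sex of the samples, since Ctrl replicates 2 and 3 were female by expression. Ndufa1, a complex I accessory subunit, was at 281, 269 and 358 CPM in OIR cone bipolar-like cells and at 228, 399 and 439 CPM in Ctrl. In rod bipolar-like cells it was at 287, 281 and 482 CPM in OIR and 319, 513 and 603 in Ctrl. Ctrl replicate 1 was the lowest Ctrl sample in both, and OIR replicate 3 the highest OIR sample. Cox7b in rod-like cells did not have this order, at 397.5, 398.5 and 410.5 CPM in OIR and 367, 336 and 304 in Ctrl. Ndufb11 differed little there, at 805, 707 and 782 against 734.5, 737 and 722 CPM. Ctrl replicate 1 was the lowest Ctrl sample for both genes in amacrine-like, cone-like, cone bipolar-like, microglia-like and Mueller-like cells. For example, Cox7b was at 395, 519 and 501 CPM in Ctrl cone bipolar-like cells. In rod bipolar-like cells this held for Ndufb11 (456, 492 and 537.5 CPM) but not for Cox7b, and in RPE-like cells for neither.

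Of the genes that work with the members, a few subunits encoded by mitochondrial DNA were called lower in 3 types. The alternatives, such as the sex term, the block or leaving out 1 sample, were evaluated gene by gene for the members only. How far the calls of the other lists, here and in the next paragraph, depend on them is not known. With the sex term, which leaves Ctrl replicate 1 alone against OIR, a smaller share of all genes was called in rod-like cells. In rod-like cells 2 of 13 fell (1.03% of all genes did) and all 13 were negative, with a median log2 fold change of -0.70. Mt-Nd4l, a complex I subunit, was at 137, 95.7 and 126 CPM in OIR and 273, 263 and 282 in Ctrl (-1.19, SE 0.14, adjusted p = 0.00564), and mt-Nd6, another, at 23.2, 17.8 and 21.1 against 41.7, 37.4 and 34.3 CPM (-0.87, SE 0.14, adjusted p = 0.0177). No OIR sample reached a Ctrl sample in either. Mt-Nd4l also fell in cone-like cells (-0.80, adjusted p = 0.0274, 13 of 13 genes negative) and Mueller-like cells (-0.99, adjusted p = 0.0233, 12 negative), and no gene of the list was called in the other 5 types. In amacrine-like cells 11 of 12 tested were positive, with a median of 0.44, and in microglia-like cells 10 of 12, with a median of 0.19. Negative signs prevailed in cone bipolar-like (13 of 13, median -0.37), rod bipolar-like (12 of 13, -0.32) and RPE-like cells (9 of 12, -0.18). The share of these genes in rod-like cells was 4.66%, 3.17% and 3.22% in OIR and 6.37%, 4.02% and 4.23% in Ctrl, highest in replicate 1 of both groups.

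Mitochondrial ribosomal proteins had 3 called lower of 77 tested in rod bipolar-like cells (1.16% of all genes were), Mrps35 (-0.73, adjusted p = 0.0403), Mrpl34 (-0.66, adjusted p = 0.0295) and Mrpl36 (-0.76, adjusted p = 0.0274), and none elsewhere. Of the assembly factors, Cox17, the copper chaperone of complex IV, fell in rod bipolar-like cells, at 201, 188 and 227 CPM in OIR and 251, 343 and 361 in Ctrl (-0.62, adjusted p = 0.0492), and none of the list was called in the other types. No gene was called in any type among 18 of the tricarboxylic acid cycle, 16 regulators of mitochondrial biogenesis or 10 other subunits and carriers. At an unadjusted p under 0.05, 0 to 3 genes of the tricarboxylic acid cycle, 0 to 5 of the regulators and 0 to 3 of the other subunits and carriers passed per type. Regulators passed in rod-like cells alone, 5 of 16 (31.2%, against 18.6% of all genes). Of the other subunits and carriers, 3 of 9 passed in rod bipolar-like cells (33.3%, against 14.4%). In rod-like, cone-like and Mueller-like cells 2 of 9 each passed (22.2%, against 18.6%, 11.4% and 15.7%). Cone bipolar-like cells had 1 of 9 (11.1%, against 11.9%) and the other types 0. Of the cycle, at most 3 of 17 passed, in rod bipolar-like cells (17.6%). In rod-like cells 13 of the 16 regulators were negative, with a median of -0.31, among them the coactivator Ppargc1a at -0.34 and the nuclear receptor Esrrb at -0.42 (adjusted p = 0.0908), while Tfam, which packages mitochondrial DNA, was at 0.38.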

How the data were processed

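The study measured polyA RNA of single dissociated retinal cells with 10x Genomics 3' v3 libraries in 3 OIR and 3 Ctrl samples. Per the labels the authors mapped the reads to mm10, and the deposited matrices, written by Cell Ranger per the file headers, hold raw counts of UMIs per gene and cell. No samples were pooled further. Cells with 500 to 5000 detected genes and at most 20% mitochondrial UMIs were kept, the groups were integrated by canonical correlation in Seurat 5.3.0 (2000 variable genes, 15 components, 20 neighbours, resolution 0.5), and clusters were named from markers under R 4.3.3. Doublets were left in, and Scrublet (scanpy 1.11.5, Python 3.11.15) served an alternative that removed 4.30% to 5.97% of cells per sample. Raw UMIs were summed per sample and cell type and tested in edgeR 4.0.16 (quasi-likelihood test, TMM, filterByExpr, Benjamini-Hochberg over all genes tested), with DESeq2 1.42.0 as an alternative. The fits were tested on simulated data. Differences between cell types used the sample as a block. Shares and CPM between cell types are descriptions without a test, since the clusters were made from the same cells. CPM per sample beside a fold change are TMM-scaled, while mean levels by type, marker levels and X-linked genes are per library total.

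The members and gene lists were chosen with earlier results of these data known. Named were called members and a fixed set of core, isoform and X-linked members. Cox6b2, Ndufa13, Ndufa5, Ndufs7, Ndufv3, Ndufb9, Ndufb11, Uqcr10, Uqcr11, Uqcrb, Uqcrh, Sdhaf4, Atp5d, Cox7a2l and the genes named from the other lists without a call were chosen after their values were seen. A few genes, of the members and of the other lists, are not reported here. The labels say that retinas of 2 mice were taken per sample but not whether replicates came from separate days, so p-values measure only the spread between these samples. Samples with the same replicate number deviated together over all cells (correlations of deviations 0.670, 0.298 and 0.506) and, above 0.1 in every pair, in rod-like, cone bipolar-like and RPE-like cells but not in the other 5 types, rod bipolar-like cells among them (0.304, 0.0856 and 0.157). Unmatched numbers also deviated together over all cells, OIR replicate 3 with Ctrl replicate 2 (0.397) and OIR replicate 2 with Ctrl replicate 3 (0.231). Unmatched pairs that held a replicate 1 were all negative. The pairing within replicates 2 and 3 is therefore uncertain. The numbers were still taken as pairing the samples from the sum over all cells. Values with the replicate number as a block are given beside results they change and depend on that choice. Alternatives were another normalization, filter, tool, cell filter, clustering, sample set, sex term and block, evaluated gene by gene for the members only.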

Additional observations from a re-analysis of the deposited data

Results flagged for a closer look

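The OIR effect on Cox6b2, the complex IV isoform known from testis, differed between Mueller-like and rod-like cells by -1.51 on the log2 scale (SE 0.27, edgeR interaction test, adjusted p = 0.0132). It was the only member singled out by a test of the difference between cell types. The call was lost when OIR replicate 2, OIR replicate 3, Ctrl replicate 2 or Ctrl replicate 3 was left out. In rod-like cells all 3 OIR samples were above all Ctrl samples, but the mean level was only 4.69 CPM. In Mueller-like cells 2 of 3 OIR samples were below the Ctrl range and the third inside it. Those 2 samples also had more of their Mueller-like cells in cluster 6 (60.1% and 60.7%), and the part of this was not tested.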

How the results depend on the processing

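The fall of Cox8b in RPE-like cells was lost without OIR replicate 1, where 0 members were called. It was lost too with a term for sex, which leaves Ctrl replicate 1 alone against OIR. Every other alternative run called it, with log2 fold changes from -3.16 to -1.92. In rod-like cells, where none was called, DESeq2 called 2 (5.87% of all genes), library size alone 1 (Cox5b; 4.81%), the replicate block 1 (Cox6a1, with 10.7% of all genes called), replicates 2 and 3 alone 16 (with 22.0% of all genes) and cluster 0 alone, an alternative added after seeing the data, 2 (11% of all genes). Leaving out 1 sample each gave 0 to 3. There were 3 without Ctrl replicate 1 (Sdhc, Cox4i1 and Sdhd, with 8.68% of all genes called) and 1 without OIR replicate 1 (Cox6a1, with 3.89%). In rod bipolar-like cells the replicate block called 17 (6.79% of all genes), replicates 2 and 3 alone 9 (7.78%) and no filter on low counts (every gene with at least 1 UMI) 8 (3.43%). DESeq2 called 2 there (2.71%), and leaving out mitochondrially encoded genes gave 1 (2.57%). Cox6b2 was called there with the sex term, which leaves Ctrl replicate 1 alone against OIR. That was the Ctrl sample with the lowest Cox6b2 in these cells. A mitochondrial limit of 10% gave 1 (2.71%) and removing doublets 1 (2.37%). Leaving out 1 sample gave 0 to 2, with 2 without Ctrl replicate 1 (3.63%). In cone bipolar-like cells the block called 2 (4.99%) and replicates 2 and 3 alone 1 (3.48%). Leaving out 1 sample gave 0 to 2 there, with 2 without Ctrl replicate 1 (2%). In Mueller-like cells replicates 2 and 3 alone called 1 (Cox6b2; 3.27%). The block changed no other call of a member. For the interaction against rod-like cells, leaving out 1 sample gave 0 to 3 members in amacrine-like, 0 to 2 in cone bipolar-like, 0 to 8 in Mueller-like and 0 to 6 in rod bipolar-like cells, and no filter gave 2 in Mueller-like and 6 in rod bipolar-like cells. The share of all genes called in these interaction runs was not counted, so the counts have no background beside them. The causes were not tested. Without Ctrl replicate 1, and in replicates 2 and 3 alone, every Ctrl sample was female by expression and no OIR sample was. Group and sex cannot be told apart in those runs. No called value of a member changed sign. The cone-like member median turned with library size alone, with the sex term, without OIR replicate 2 and without Ctrl replicate 3. The Mueller-like median turned with the sex term. In cluster 11 alone, also added after seeing the data, the rod-like median turned to -0.02.

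The share of UMIs moved by more than the spread between samples in the cone-like mean without mitochondrially encoded genes (4.82%), in the Mueller-like mean as a mean per cell (2.78%) and in its clusters 3 (2.19%) and 6 (3.76%), and in the rod-like mean as a mean per cell (2.96%) and in clusters 0 (2.14%), 2 (4.12%) and 11 (4.16%). The rod-like difference between OIR and Ctrl was 0.352 percentage points as a mean per cell, 0.151 divided by the TMM factor, 0.272 in cluster 0 and 0.131 in cluster 11. The clusters and the TMM division were chosen after seeing the data. Amacrine-like, RPE-like and microglia-like cells were few per sample.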
